A study of Homo sapiens with 6 samples.

Results

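The lamins, the inner nuclear membrane proteins LBR and TMPO, and the HMGB and HMGA chromatin proteins were followed in 76N cells that had received an siRNA against Ecd. The set holds 10 genes, LMNA, LMNB1, LMNB2, LBR, TMPO, HMGB1, HMGB2, HMGB3, HMGA1 and HMGA2, of the 19775 gene symbols on the array. They were chosen by gene family, with the signals of the Ecd siRNA and control siRNA arrays already known, and every probe set carrying 1 of these symbols alone was taken, 34 in all. The comparison that drew attention to them is therefore the one described here, so their differences are given as a description. The cells were 76N, non-tumour mammary epithelial cells of human origin kept in DFCI-1 medium, and no second line was used. There were 3 cultures transfected with Ecd siRNA and 3 transfected with control siRNA, called biological replicates in the labels, with 1 Affymetrix array each. The siRNA target, ECD, is the human gene related to ecdysoneless of the fly. Neither the siRNA sequences nor their dose, nor how long after transfection RNA was taken, is stated in the labels.

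Lamins are intermediate filament proteins that form a meshwork under the inner nuclear membrane. A-type lamins come from LMNA by alternative splicing, and B-type lamins come from LMNB1 and LMNB2. LBR, the lamin B receptor, and the LAP2 proteins made from TMPO bind lamins and chromatin. HMGB proteins bend DNA through HMG boxes, while HMGA proteins bind the minor groove of AT-rich DNA through AT hooks. Loss of lamin B1 is widely used as a sign of senescence, HMGB2 is known to decline as cells enter senescence, and HMGA proteins are known components of senescence-associated heterochromatin foci. Several of these genes are also known to be expressed more strongly in dividing cells.

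The targeted transcript was lower where the Ecd siRNA had been given. ECD had signals of 588.9, 599.8 and 542.5 on the Ecd siRNA arrays, against 1076.6, 1011.4 and 1007.2 on the control siRNA arrays, so 55.9% of the control mean was left. Array medians ran from 134.6 to 146.7 with Ecd siRNA and from 128.7 to 147.6 with control siRNA. The ratio of the 3′ to the 5′ GAPDH control probe sets, a measure of RNA integrity, was 0.974 to 1.003 with Ecd siRNA and 0.974 to 0.980 with control siRNA. The basal keratin genes KRT5 and KRT14 and the epithelial genes KRT8, EPCAM and CDH1 were all well above the filter on low signals (the brightest 60% of probe sets, a signal of 84.6), and the summed signal of 6 epithelial markers was 56032 to 61171 with Ecd siRNA and 55003 to 59878 with control siRNA. Of these 6, KRT18 was called lower and CDH1 higher. Of 8 fibroblast markers, 4 (COL3A1, PDGFRA, PDGFRB and LUM) lay under the filter, and the summed signal of the 8 was 1944 to 2200 with Ecd siRNA and 1739 to 2132 with control siRNA. COL1A1 was the 1 of them called, and it was higher. The leukocyte genes PTPRC, CD3E and CD14 and the endothelial genes CDH5 and VWF lay under the filter too, while PECAM1 was above it and was not called.

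The promoters of 8 of the 10 genes were matched in RefSeq, as 16 windows of 300 bases, each reaching from 250 bases before a transcription start to 50 bases after it. They were searched on both strands for CCAAT, the letters bound by NF-Y, for TTTGAA, a core of the cell cycle homology region, and for TTTCCCGC or TTTGGCGC, forms of the E2F motif. CCAAT stood in 9 of the 16 windows and in 6 of the 8 genes, against 34.6% of all 35116 RefSeq windows and 39.7% of genes. HMGB2 and HMGA2 had no window to search, and the TMPO windows overlap and share the same CCAAT matches. TTTGAA stood in 3 of the 8 genes (HMGB1, HMGB3 and LMNB2), against 18.2% of genes, and the E2F letters in 1 (LMNA), against 2.75%. The letters do not overlap one another in the 4 stretches that follow. A match is a description of the letters and not a measured binding site. The stretches are shown because they belong to the gene with the largest difference (LMNB1) and to the 3 genes read as lower by 4 or more probe sets (TMPO, HMGB1 and LMNA). Each gives the 150 bases before 1 start from RefSeq, build GRCh38.p14, 5′ to 3′ on the gene's strand, with the matches in capitals (ATTGG is CCAAT on the opposite strand). LMNB1 has more than 1 window, and only that of the start shown held any of the letters searched. HMGB1 has another window, not shown, which held its TTTGAA and a CCAAT on the opposite strand. LMNB1 lies at chr5:126776986-126777135 on the plus strand, TMPO at chr12:98515423-98515572 on the plus strand, LMNA at chr1:156082423-156082572 on the plus strand and HMGB1 at chr13:30465937-30466086 on the minus strand.
LMNB1: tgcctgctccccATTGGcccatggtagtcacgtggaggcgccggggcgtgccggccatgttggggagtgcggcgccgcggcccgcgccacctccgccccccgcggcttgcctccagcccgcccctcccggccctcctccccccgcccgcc
TMPO: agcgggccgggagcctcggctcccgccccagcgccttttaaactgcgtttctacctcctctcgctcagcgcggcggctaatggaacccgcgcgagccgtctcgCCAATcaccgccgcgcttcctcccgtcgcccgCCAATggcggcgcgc
LMNA: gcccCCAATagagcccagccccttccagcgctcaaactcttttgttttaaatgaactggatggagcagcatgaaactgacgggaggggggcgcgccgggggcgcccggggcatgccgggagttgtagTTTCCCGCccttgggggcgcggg
HMGB1: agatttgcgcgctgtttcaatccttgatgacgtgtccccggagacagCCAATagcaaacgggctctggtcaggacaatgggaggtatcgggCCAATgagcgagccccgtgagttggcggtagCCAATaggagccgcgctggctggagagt

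Transcripts of the lamina and of the HMG proteins lay lower with Ecd siRNA across the set, by sizes that differed widely between genes. LMNB1 kept 13.2% of its control siRNA mean signal, HMGB2 24.0%, TMPO 36.6%, LBR 40.2%, LMNB2 48.0% and HMGA1 49.3%. LMNA kept 61.3%, HMGB1 73.8%, HMGA2 78.4% and HMGB3 84.5%. These values are for the probe set of each gene with the highest mean signal, and the 3 Ecd siRNA arrays lay wholly below the 3 control siRNA arrays in all 10, which was true of 18.3% of the 14603 genes tested. In limma's fit over all tested genes, with a Benjamini-Hochberg adjusted p under 0.05 as the call, 9 of the 10 were called lower and 0 higher, beside 11% of all tested genes called lower and 10.1% called higher. The means of 6 were under 50% of control, which held for 2.39% of tested genes. All 10 passed the filter. The median log2 difference of the 10, Ecd siRNA minus control siRNA, was -1.03, beside 0.01 over all tested genes. In RNA from whole cultures, fewer cells that express a gene and less of its RNA per cell cannot be told apart.

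**Figure D1:**
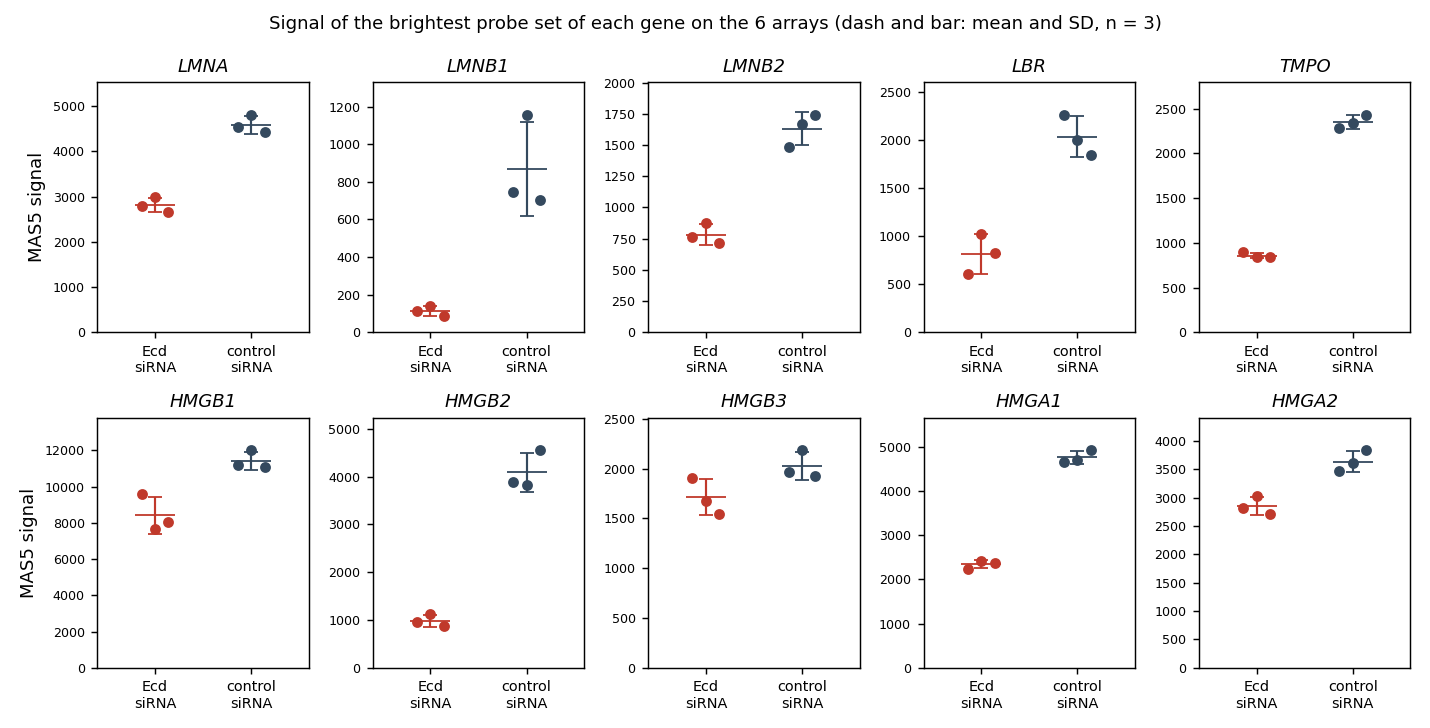
MAS5 signal (y axis, linear, from 0) of the brightest probe set of each of the 10 genes on the 3 Ecd siRNA arrays (red, left) and the 3 control siRNA arrays (dark, right); dashes and bars are the mean and SD. The groups do not overlap in any panel, and the gap is widest relative to the control level for LMNB1, where 13.2% was left, and narrowest for HMGB3, where 84.5% was left.

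The genes spread over a wide part of the distribution of all tested genes. LMNB1 had the 20th lowest log2 difference of the 14603 and HMGB2 the 70th. TMPO, LBR, LMNB2 and HMGA1 ranked between 164 and 323 from the bottom, and LMNA ranked 651. HMGB1 ranked 1450, HMGA2 2023 and HMGB3 3116, which places HMGB3 21.3% of the way up. Between neighbours in this order, ranges of 1 SE overlapped for TMPO and LBR, for LMNB2 and HMGA1, for HMGB1 and HMGA2, and for HMGA2 and HMGB3. No difference between 2 genes was tested.

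**Figure D2:**
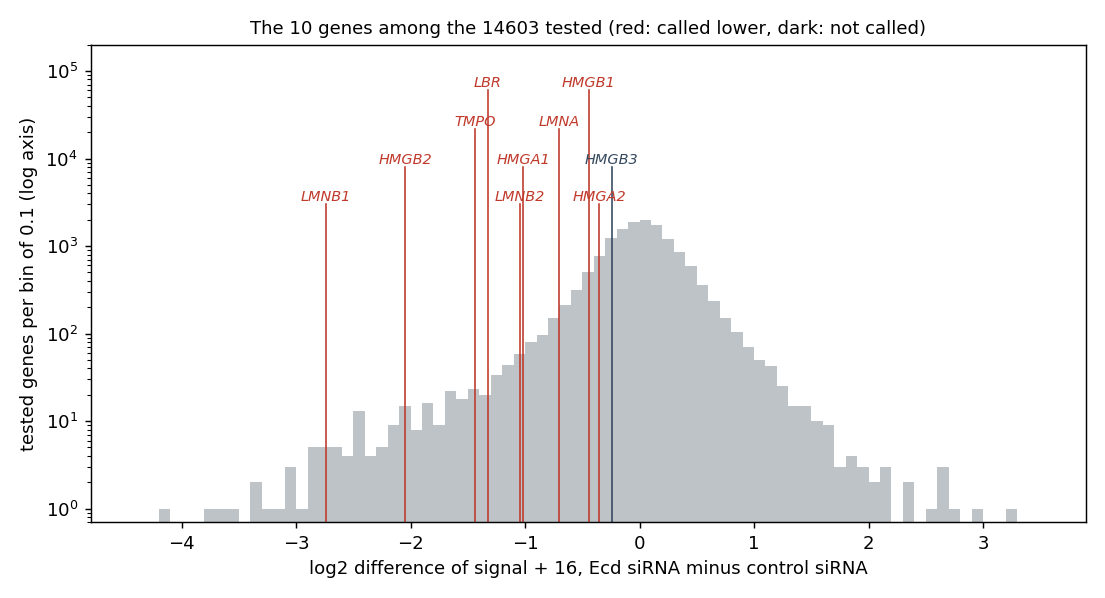
Histogram of the log2 differences (x axis, Ecd siRNA minus control siRNA) of the 14603 tested genes, with the number of genes per bin on a log axis; vertical lines mark the 10 genes (red: called lower; dark: not called). LMNB1 at -2.74 and HMGB2 at -2.04 stand in the lower tail, while HMGB3 at -0.24 stands within the bulk.

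Among the lamins, the B-type genes were further below control than the A-type gene. LMNB1 encodes lamin B1 and had signals of 115.5, 141.3 and 88.1 on the Ecd siRNA arrays, against 747.7, 1155.5 and 704.0 on the control siRNA arrays. Every Ecd siRNA array read far below the lowest control array, and control replicate 2 stood above the other two. The means were 115 ± 26.6 with Ecd siRNA and 869.1 ± 249 with control siRNA (SD, n = 3 each), a log2 difference of -2.74 with an SE of 0.22. Values here are differences of log2(signal + 16), which understates the change of dim transcripts, and LMNB1 came near the filter signal of 84.6 with Ecd siRNA. The difference was -2.90 with 1 added to the signal and -2.36 with 64, and without control replicate 2 it was -2.52.

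LMNB2, the gene of lamin B2, had signals of 764.8, 873.9 and 712.3 with Ecd siRNA, against 1481.7, 1670.3 and 1740.9 with control siRNA. The highest Ecd siRNA array was well under the lowest control array, and the log2 difference was -1.04 (SE 0.11). Its only single-symbol probe set, 216952_s_at, belongs to a class named _s_at that can bind transcripts of more than 1 gene. The brightest probe sets of LMNA, HMGB2, HMGA1 and HMGA2 are of that class too, and that of HMGB1 is named _x_at. LMNA, which encodes lamins A and C, had signals of 2781.1, 2984.0 and 2665.8 with Ecd siRNA, against 4532.7, 4803.2 and 4415.5 with control siRNA, in 203411_s_at. Replicates lay close together in both groups, and the log2 difference was -0.70 (SE 0.07). Of the 6 LMNA probe sets, 4 were called lower, with differences of -0.75 to -0.53, although 212089_at (-0.53) lost its call without Ecd siRNA replicate 1 or 2 and without control replicate 1 or 3. In 214213_x_at the difference was -0.38 (limma adjusted p = 0.0955), with no overlap between groups. The sixth, 244225_x_at, was dim and its groups overlapped, at 135.6, 97.9 and 131.1 with Ecd siRNA against 123.0, 137.7 and 44.4 with control siRNA, a difference of 0.33 (limma adjusted p = 0.626) that was -0.10 without control replicate 3. Averaged over all 6 probe sets, LMNA was at -0.44 and was still called.

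LBR tethers heterochromatin to the lamina and is also a sterol C14 reductase of cholesterol synthesis. Its signals were 608.2, 1024.1 and 819.8 with Ecd siRNA, against 2257.8, 1999.2 and 1844.4 with control siRNA. The Ecd siRNA arrays differed among themselves more than those of most genes in the set, with replicate 1 lowest and replicate 2 highest. The means were 817.4 ± 208 with Ecd siRNA and 2034 ± 208.9 with control siRNA (SD, n = 3 each), and the log2 difference was -1.32 (SE 0.16).

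TMPO encodes the LAP2 family, of which LAP2 alpha is nucleoplasmic and binds A-type lamins and the retinoblastoma protein, and other forms are anchored in the inner membrane. In 224944_at its signals were 892.8, 845.6 and 838.6 with Ecd siRNA, against 2282.2, 2336.4 and 2429.6 with control siRNA. These were among the tightest replicates of the set, and the log2 difference was -1.43 (SE 0.08). All 4 TMPO probe sets above the filter were called lower, at -1.73 in 203432_at, -1.72 in 209754_s_at, -1.43 in 224944_at and -1.23 in 209753_s_at. The control siRNA arrays disagreed in the _s_at probe sets, where 209754_s_at read 215.3, 328.8 and 229.5 with Ecd siRNA against 987.1, 1255.4 and 538.1 with control siRNA. Control replicate 3 was the low one there, although it was the highest of the controls in 224944_at. Which LAP2 form each probe set reads is not given by the annotation used. The fifth probe set, 237863_at, lay far under the filter, at 28.2, 16.2 and 8.5 with Ecd siRNA and 7.8, 6.7 and 6.8 with control siRNA, and was not tested.

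**Figure D3:**
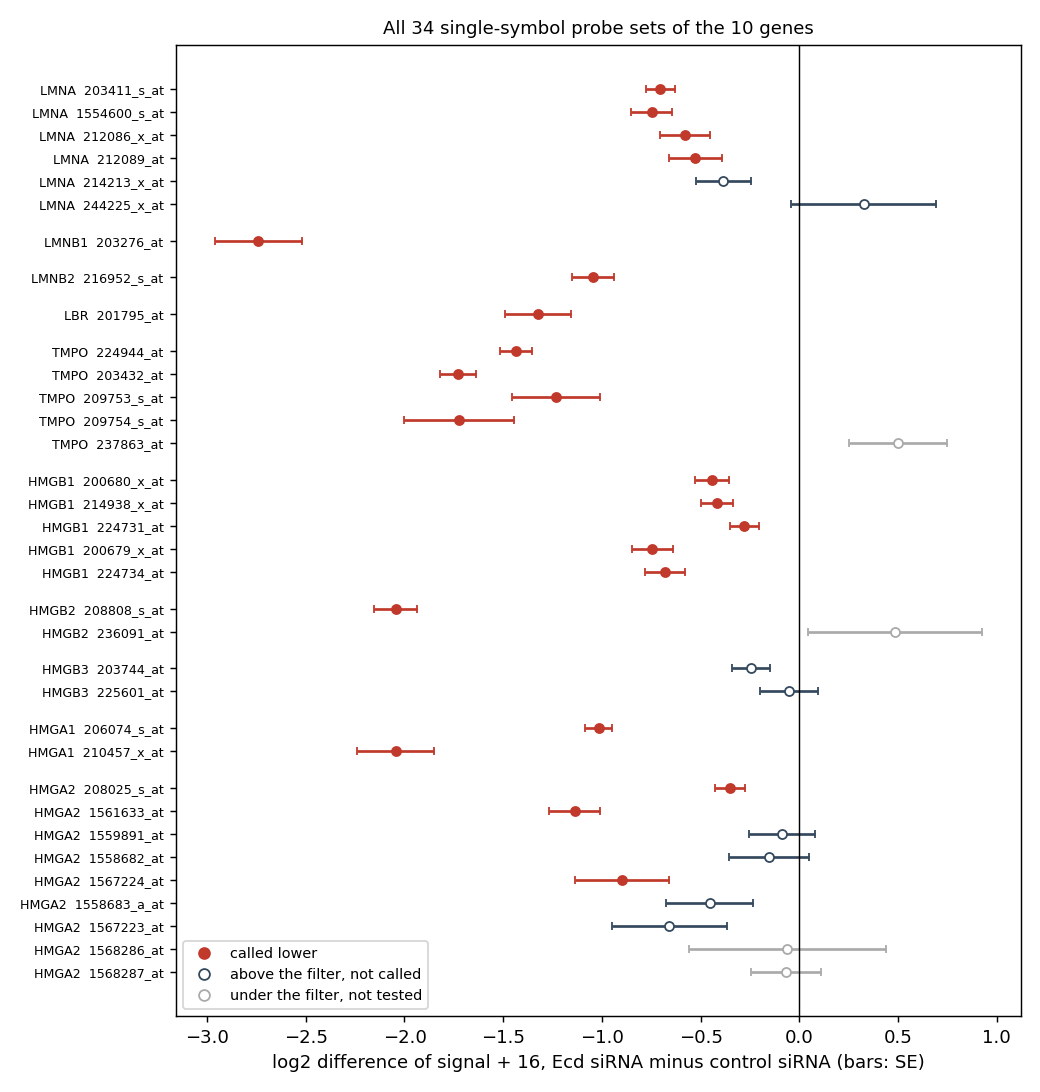
Log2 difference (x axis, Ecd siRNA minus control siRNA) of all 34 single-symbol probe sets, grouped by gene; bars are the SE of the fit over all probe sets, or of the 3 against 3 arrays for the 4 grey ones under the filter. Filled red points, 22 in number, were called lower, open dark ones were not called, and above the filter the probe sets of LMNA, HMGA2 and HMGA1 spread the most.

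HMGB2 and HMGB1 were called lower, and HMGB3 was not called. HMGB2 encodes a DNA-bending protein of dividing cells, and in 208808_s_at its signals were 962.2, 1117.4 and 865.1 with Ecd siRNA, against 3882.8, 3835.4 and 4551.8 with control siRNA. The means were 981.6 ± 127.3 with Ecd siRNA and 4090.0 ± 400.6 with control siRNA (SD, n = 3 each), a log2 difference of -2.04 (SE 0.11), and no array came near the other group. The other HMGB2 probe set, 236091_at, was under the filter with a mean of 28.2 with Ecd siRNA and 12.8 with control siRNA. Averaging it with 208808_s_at gave -0.78, still called lower.

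HMGB1, a chromatin protein that also acts as an alarm signal when it leaves the cell, had signals of 9576.3, 7663.3 and 8032.8 with Ecd siRNA in 200680_x_at, against 11174.9, 12004.7 and 11059.1 with control siRNA. The groups were apart but close, with a log2 difference of -0.44 (SE 0.08). All 5 HMGB1 probe sets were called lower, by differing amounts. In 200679_x_at (-0.74) and 224734_at (-0.68) about 60% of control was left (59.3% and 61.7%), while in 200680_x_at, 214938_x_at (-0.42) and 224731_at (-0.28) it was 73.8%, 75.1% and 82.4%. The call of 224731_at was lost in 7 of its 15 alternatives, among them without Ecd siRNA replicate 1 or 3 and without control replicate 2 or 3, with limma adjusted p up to 0.129. RefSeq lists 50 pseudogene symbols of HMGB1 and 32 of HMGB3, and near-identical copies could add to probe sets of these genes, so their values are uncertain to that extent. HMGB3 was the member that was not called. It had 1909.9, 1680.7 and 1548.5 with Ecd siRNA in 203744_at, against 1970.4, 2184.7 and 1929.5 with control siRNA. The highest Ecd siRNA array lay just under the lowest control array, and the log2 difference was -0.24 (SE 0.10, limma adjusted p = 0.101). With Ecd siRNA replicate 1 left out, HMGB3 stood at -0.33 and passed (limma adjusted p = 0.0343). Its second probe set, 225601_at, was at -0.05 (limma adjusted p = 0.86 in the fit over probe sets), with overlapping groups.

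HMGA1 and HMGA2 encode the AT-hook proteins, which are abundant in embryonic and many transformed cells. HMGA1 had signals of 2240.7, 2416.6 and 2380.1 with Ecd siRNA in 206074_s_at, against 4665.9, 4690.3 and 4918.4 with control siRNA. Replicates were tight, the groups lay far apart, and the log2 difference was -1.02 (SE 0.07). In its other probe set, 210457_x_at, the signals were 159.6, 128.8 and 154.2 with Ecd siRNA, against 587.0, 889.9 and 541.3 with control siRNA. That probe set gave a difference of -2.05 (SE 0.20), so 21.9% of control was left there against 49.3% in 206074_s_at. The log2 ratio of 210457_x_at to 206074_s_at was -4.07 to -3.68 on the Ecd siRNA arrays and -3.15 to -2.38 on the control siRNA arrays, with no overlap. Averaged over both probe sets, HMGA1 was at -1.53. RefSeq lists 8 HMGA1 pseudogene symbols.

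HMGA2, whose transcript is a known target of the let-7 microRNAs, had signals of 2817.6, 3028.5 and 2714.4 with Ecd siRNA in 208025_s_at, against 3471.8, 3612.9 and 3837.8 with control siRNA. The groups did not overlap, and the log2 difference was -0.35 (SE 0.07). HMGA2 had the most probe sets, 9, of which 7 were above the filter and 3 were called lower. The largest difference was in 1561633_at, where the signals were 207.7, 215.4 and 226.9 with Ecd siRNA, against 533.8, 478.2 and 477.8 with control siRNA. That is a log2 difference of -1.14 (SE 0.13), and it was the value for HMGA2 when probe sets without _s or _x were preferred. In 1567224_at the difference was -0.90, called, but the call was lost without Ecd siRNA replicate 1 or 2, without control replicate 1 or 3, and without the filter. In 1559891_at and 1558682_at the groups overlapped at -0.09 and -0.15. Both changed sign without control replicate 1, at 0.028 and 0.0076. Averaged over its probe sets, HMGA2 was at -0.43 and was not called (limma adjusted p = 0.0825), nor was it with arrays set to a common median (-0.36, limma adjusted p = 0.0513). Its limma adjusted p ran from 0.000163 to 0.0825 over 17 alternatives.

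Counted by probe set, 30 of the 34 lay above the filter. Of these, 22 were called lower, 0 higher and 8 were not called, in a fit over 27009 probe sets of which 8.62% were called lower and 8.3% higher. In 25 of the 30 the Ecd siRNA arrays lay wholly below the control siRNA arrays, beside 16.5% of all probe sets tested. The 8 not called belonged to LMNA (2), HMGB3 (2) and HMGA2 (4). Probe sets of 1 gene share the RNA of the same cultures and are not separate replicates. The 4 under the filter were 1 of TMPO, 1 of HMGB2 and 2 of HMGA2.

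Genes whose proteins work beside the lamins were read as a list. Of 21 nuclear envelope partners, 19 were tested, 3 were called lower, 0 higher and 16 not, and the median was -0.07. Over all tested genes, 11% were called lower and 10.1% higher. At an unadjusted p under 0.05 in limma, EMD, BANF1 and CBX5 were also lower and TMEM43 was higher. Over all tested genes those shares were 16.4% lower and 15.9% higher. NRM, which encodes the inner membrane protein nurim, had 846.6, 928.0 and 1035.6 with Ecd siRNA, against 1682.3, 1451.9 and 1482.9 with control siRNA, a log2 difference of -0.71. SYNE2, the gene of the nesprin 2 linker to the cytoskeleton, was at -0.65, but the average of its probe sets was -0.16 and a probe set without _s or _x gave -0.11, neither called. TMEM201, another inner membrane protein gene, was at -0.67 (limma adjusted p = 0.0441) and lost its call without Ecd siRNA replicate 2 or 3, without control replicate 1, 2 or 3, without the filter and without the intensity trend, with limma adjusted p up to 0.158. CBX5, chosen after its values were seen, encodes the heterochromatin protein HP1 alpha, which LBR binds. It had 1112.5, 2789.6 and 3025.3 with Ecd siRNA, against 4615.8, 3277.1 and 4509.4 with control siRNA. Ecd siRNA replicate 1 stood far below the others, and the log2 difference was -0.95 (SE 0.31, limma adjusted p = 0.0539, and 0.0113 to 0.161 over its alternatives). With that array left out, CBX5 stood at -0.49 and passed (limma adjusted p = 0.0349), as it also did without Ecd siRNA replicate 2 or 3 or control replicate 2.

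The enzymes that mature prelamin A and the B-type lamins were not called. Of 5 written, 4 were tested, 0 were called in either direction, beside 11% of all tested genes called lower and 10.1% higher, and the median was -0.03. At an unadjusted p under 0.05 in limma, 1 of the 4 was lower and 0 were higher, beside 16.4% and 15.9% of all tested genes. ICMT, which methylates the farnesylated end of lamins, had the smallest p, at -0.30 (limma adjusted p = 0.0593). It passed in 4 of its 16 alternatives, among them without Ecd siRNA replicate 3. Averaged over its probe sets, ICMT was at -0.11 (limma adjusted p = 0.559). FNTA, the alpha subunit of farnesyltransferase, was at 0.18 (limma adjusted p = 0.207).

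Other HMG protein genes were called in both directions. Of 18 written, 16 were tested, 4 were called lower, 1 higher and 11 not, beside 11% of all tested genes called lower and 10.1% higher, and the median was -0.09. NSD2, a histone methyltransferase with an HMG box, had 346.6, 371.3 and 400.2 with Ecd siRNA, against 809.6, 736.2 and 750.4 with control siRNA, a log2 difference of -1.01. TFAM, the HMG-box protein that packs mitochondrial DNA, was at -0.81. With a probe set without _s or _x TFAM was at -0.55, and averaged over its probe sets at -0.59, called lower both times. SSRP1, a subunit of the histone chaperone FACT, was at -0.71 and HMGN2, a nucleosome-binding protein, at -0.64. The probe sets read for TFAM and HMGN2 are named _x_at. The other HMGN genes tested were not called. At an unadjusted p under 0.05 in limma, HMGN4 was also lower and TOX4 also higher, beside 16.4% and 15.9% of all tested genes. HMG20B, chosen after its values were seen, was the 1 called higher, at 0.42, and lost the call without Ecd siRNA replicate 2, without control replicate 1 and when its probe sets were averaged. Of 5 known regulators of HMGA2 mRNA, LIN28A, LIN28B and IGF2BP1 lay under the filter. The mRNA-binding protein genes IGF2BP3 (-0.27, limma adjusted p = 0.114) and IGF2BP2 (-0.09, limma adjusted p = 0.48) were not called. That is 0 of 2 tested, beside 11% of all tested genes called lower and 10.1% higher. A count from 2 genes is too small to set against those shares. At an unadjusted p under 0.05, 1 of the 2 (IGF2BP3) was lower, beside 16.4% of all tested genes.

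**Figure D4:**
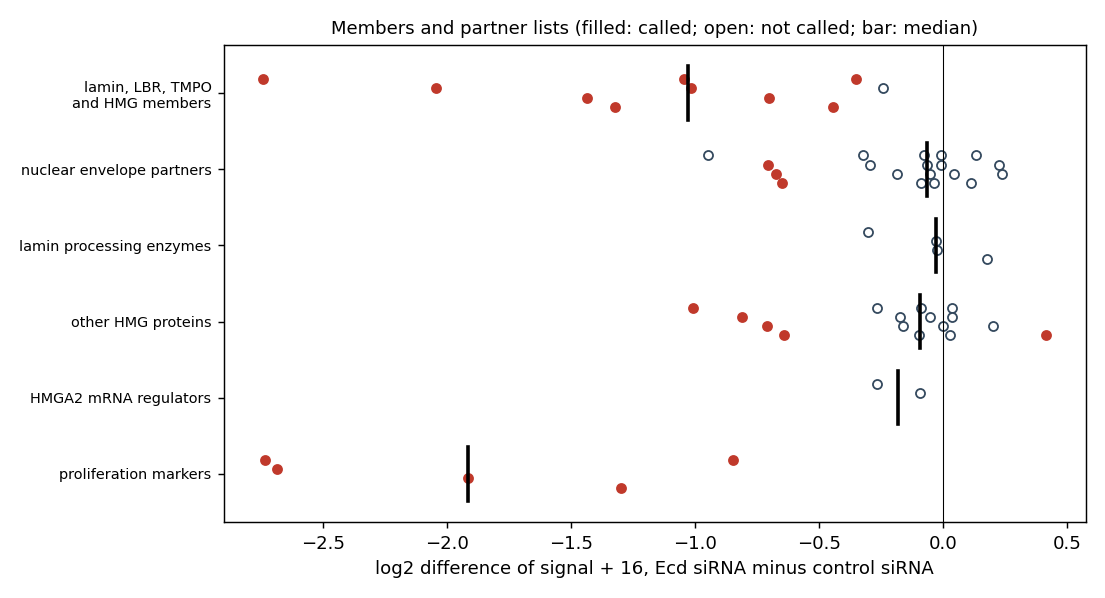
Log2 difference (x axis, Ecd siRNA minus control siRNA) of each tested gene in the set and in 5 lists, with filled points called, open points not called and bars at the medians. The bars of the set (-1.03) and of the proliferation markers (-1.91) stand apart from those of the 4 partner lists, which lie between -0.18 and -0.03.

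Markers of dividing cells were also lower with Ecd siRNA. Of 5 written, all 5 were called lower, beside 11% of all tested genes called lower and 10.1% called higher. Their median was -1.91, and their summed signal was 4524 to 5851 with Ecd siRNA and 16893 to 17545 with control siRNA. MKI67, the Ki-67 gene, was at -1.91, TOP2A, topoisomerase II alpha, at -2.74, and PCNA, the sliding clamp of DNA polymerases, at -1.30. CCNB1, the mitotic cyclin B1, was at -2.69. MCM2, a subunit of the replicative helicase, was the least lower of the 5 at -0.85, and LMNA, HMGB1, HMGA2 and HMGB3 were less far below control than it. The part of cell division in the values of the lamin and HMG genes was not tested.

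Under the 17 other settings tried, the number of the 10 genes called lower was 8 to 10, and 0 were called higher. LMNA, LMNB1, LMNB2, LBR, TMPO, HMGB1 and HMGA1 were called lower in all 17. HMGB2 was called lower in the 16 that could test it, HMGA2 in 15 and HMGB3 in 1. The choice of probe set moved the values by more than 1.5 times for LMNA, HMGB1, HMGB2, HMGA1 and HMGA2, with the values given above, and for HMGB3, whose probe sets averaged -0.15.

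**Figure D5:**
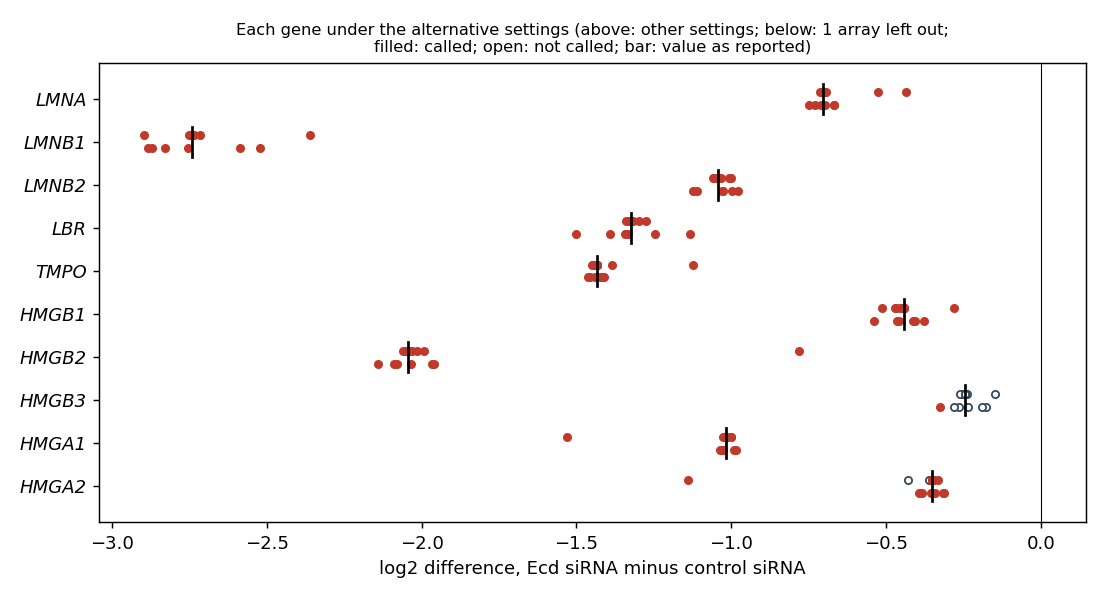
Log2 difference (x axis, Ecd siRNA minus control siRNA) of each of the 10 genes as reported (black bar), under other processing settings (upper points) and with 1 array left out (lower points); filled points were called and open ones were not. All points lie below 0, and those farthest from their bar, for HMGB2, HMGA2 and HMGA1, come from another choice of probe set.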

How the data were processed

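RNA of 6 cultures was read on 1-colour arrays, and groups and replicate numbers came from the sample titles. The deposited values are intensities, 1 for each probe set of an array, computed as MAS5 signals per the submitters' processing notes, which give no MAS5 version. The mean between percentiles 2 and 98 was nearly equal on all arrays, which means that a shift common to the whole transcriptome cannot appear. Gene names came from GEO's annotation of the platform, and 41037 of the 41091 single-symbol ones matched RefSeq. KRT17, TP63 and CD68 were not analysed here, and 1 gene of the other HMG list is not reported here. Signals became log2(signal + 16). Genes were read by their brightest probe set (highest mean log2) and tested if it ranked among the brightest 60% of probe sets, a signal of 84.6. Ecd siRNA minus control siRNA was fitted in limma 3.58.1 (lmFit, eBayes with trend; R 4.3.3) across all genes, and again across all probe sets, with Benjamini-Hochberg adjustment and a threshold of 0.05. The fit was tested on simulated data. The members and lists were chosen with earlier results of these data known. Named genes were all members, ECD, the up to 4 called genes of each list with the smallest adjusted p, or the 2 with the smallest p where fewer than 2 were called, and the proliferation and cell type markers. The p-values rest on the variation among these cultures, and with 3 arrays a group their precision is limited. The labels hold no scan date.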

Additional observations from a re-analysis of the deposited data

How the results depend on the processing

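The counts of lamin, LBR, TMPO and HMG genes and probe sets called lower or higher stayed within 1.5 times under every setting, at 8 to 10 genes and 16 to 23 probe sets lower and 0 higher, and so did the counts over all genes (1163 to 1714 lower, 996 to 1587 higher). The settings were quantile normalization, arrays set to a common median, pseudocounts of 1 and 64, eBayes without trend, array weights, a replicate block, testing the upper 40% or all probe sets, averaging a gene's probe sets, preferring probe sets without _s or _x, and leaving out each of the 6 arrays. Preferring probe sets without _s or _x could not test HMGB2, whose other probe set was under the filter. It could not test HMG20B, NSD2 or ICMT either. The nuclear envelope partners had 5 lower with array weights and 5 with the replicate block, against 3, and leaving out 1 array gave 2 to 4 lower and 0 to 1 higher. The lamin processing enzymes had 1 lower with quantile normalization, with the filter at the upper 40% and with the replicate block, and 0 to 1 without 1 array, against 0, and 1 higher when those without _s or _x were preferred. For the other HMG proteins the count higher was 0 under that preference, where HMG20B was not tested. It was 0 to 1 without 1 array, against 1. Signs turned for 244225_x_at of LMNA (-0.10 without control siRNA replicate 3) and, without control siRNA replicate 1, for 225601_at of HMGB3 (0.10) and for 1559891_at (0.028) and 1558682_at (0.0076) of HMGA2. Without 1 array these ran from -0.10 to 0.57 for 244225_x_at, from -0.14 to 0.10 for 225601_at, from -0.20 to 0.028 for 1559891_at and from -0.25 to 0.0076 for 1558682_at. The sign also turned for IGF2BP2 (0.00497 when its probe sets were averaged). None of these was called. The causes of these shifts were not tested. Same-numbered arrays deviated together only weakly (r of -0.0093, 0.079 and 0.15), and not every array matched its own number best, so the numbers were not taken as pairs; with the replicate block 9 of the 10 genes and 23 probe sets were called lower. Dim probe sets near the filter signal of 84.6 limit the sizes given for LMNB1 and several HMGA2 probe sets.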
